A study of Mus musculus with 8 samples.

Results

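Hematopoietic stem and progenitor cells are isolated by the proteins on their surface. The genes of 8 surface proteins, Kit, Ly6a, Ly6e, Cd34, Slamf1, Cd48, Procr and Cd27, were examined for open chromatin. All peaks that overlapped one of these genes or the 20 kb on either side were taken, which gave 339 peaks of the 8 deposited lists. Peaks that overlapped between libraries were merged, and the 339 peaks formed 82 regions, of 123260 regions in the whole series.

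Most of these proteins serve different steps of a sort, while the study's methods name no stain for Ly6e. c-Kit (Kit), the receptor for stem cell factor, and Sca-1 (Ly6a), a small protein held to the membrane by a lipid anchor, are stained on lineage-negative marrow, and cells positive for both hold the stem cells and the multipotent progenitors, while c-Kit-positive cells without Sca-1 are mostly myeloid and erythroid progenitors. CD150 (Slamf1), CD48, CD34, CD27 and the endothelial protein C receptor (Procr) then divide the Sca-1-positive cells further. The study used CD34 on the cells without Sca-1, to tell their progenitors apart. In ATAC-seq the Tn5 transposase cuts where DNA is not covered by nucleosomes, so that fragments pile up over promoters and enhancers in use or poised for use.

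The libraries came from female mice of 4.5 months on a 129Sv4/Jae x B6 background. From their bone marrow, cells without lineage proteins and with c-Kit were sorted into LSK+ cells, which carry Sca-1, and LSK- cells, which do not. The mice were wild-type (WT) or XistΔ/Δ, in which Xist, the RNA that coats the inactive X chromosome, had been deleted by a Cre recombinase driven by Vav1 sequences and so throughout the blood system. Each of the 4 groups had 2 libraries, made from about 10000 cells each. Because c-Kit and Sca-1 staining set the gates, the cell types differ in surface Sca-1 by construction, and the values below concern the chromatin at these genes and not the proteins.

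The lists held between 29829 peaks (LSK+ WT replicate 2) and 91590 peaks (LSK- XistΔ/Δ replicate 1), and the most frequent background pileup, the number of fragments expected over a base outside peaks, ranged from 0.482 to 3.866 in the same pair of libraries. Replicates 2 of the WT groups had the shortest lists, and a peak missing there cannot be told from one too weak to be listed. The submitters' codes on the lists were the same for all replicates 1 and another for all replicates 2, and replicate numbers were treated as pairs, so that calls under a replicate block (each pair in the same order) are given where they differ. In this block the smallest exact permutation p is 0.125. In every library the values compared are the fold enrichment at the peak summit and the percentile of the peak within its own list when ranked by its −log10 p, where 100 is the strongest peak and 0 stands for no peak. A region was called for a contrast when both libraries of a group exceeded both libraries of the other group in each of the 2 strata, that is in WT and in XistΔ/Δ for the cell types, and in LSK+ and in LSK- for the genotypes. With 36 ways to assign the labels within strata, no exact permutation p can fall below 0.0556, which a called region reaches. The p-values below are from this unblocked test unless the block is named. Under the block, the exact permutation p was 0.125 for each call at the promoters of Kit, Ly6e, Slamf1 and Procr. Markers of the sorted populations were read at their promoters. All 6 LSK+ marker genes (Hlf, Mecom, Meis1, Hoxa9, Mllt3 and Gata2) had a promoter peak in all 8 libraries with no cell type call, and the median difference of LSK+ minus LSK- was -3.77 points. Of 8 LSK- markers (Mpo, Elane, Ctsg, Prtn3, Gata1, Klf1, Epor and Cebpe), Gata1 and Epor were called higher in LSK-, where 9.42% of 14661 protein-coding promoters were. Gata1 had a peak in the 4 LSK- libraries alone, the fewest with which a region was compared, and this fixes its call. Prtn3 was 11.7 points and Klf1 4.13 points higher in LSK+ without a call. The regions read for Prtn3, Klf1, Elane, Cebpe and Mecom had no summit within 1 kb of a start of their gene. At equal list length Prtn3 was called higher in LSK+ and Gata1 was not called. Of 7 genes of lineage proteins (Itgam, Ly6g, Ly6c1, Ptprc, Cd3e, Cd8a and Cd4), only Itgam and Ptprc had a promoter peak in any library. The product of Ptprc was stained in its form CD45R/B220. The start of Ly6c1 lies in a close sequence match to that of Ly6a, described below, and its part in the missing Ly6c1 peak was not tested.

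Of the 82 regions, 39 had a peak in at least 4 of the 8 libraries and entered the comparisons, 14 had a peak in all 8, and 24 were seen in a single library. Of these 24, 13 came from LSK- XistΔ/Δ replicate 1, the library with the longest list. The share of regions kept was 47.6% for the surface marker genes and 49.0% for the series, and the median percentile of the kept regions was 35.5 against 39.7 for all 60447 regions kept. Of the 39, 15 lay within 3 kb of an annotated transcription start and 24 were distal, and by the place of the summit 16 were intergenic, 15 intronic and 8 exonic. The share of a list that fell in the 8 windows was 0.0689% ± 0.0074 (SD, n = 2) for LSK+ WT, 0.0643% ± 0.0053 for LSK+ XistΔ/Δ, 0.0683% ± 0.0051 for LSK- WT, and 0.0688% ± 0.0046 for LSK- XistΔ/Δ, and neither contrast separated the groups (2-sided exact permutation p = 0.667 for the cell types and for the genotypes).

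**Figure D1:**
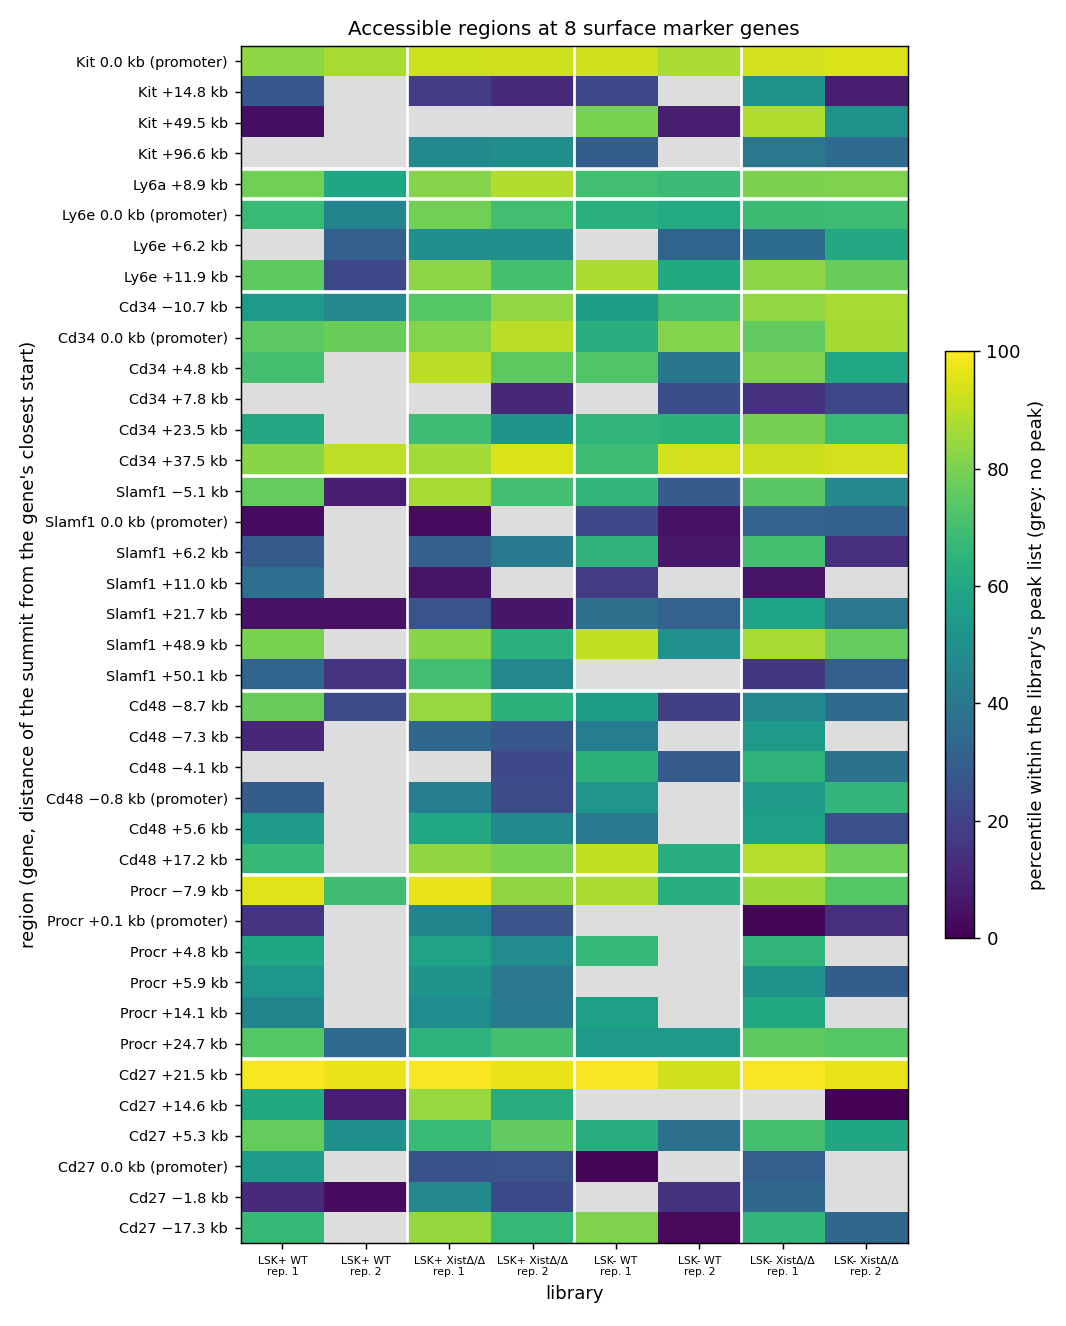
Percentile of the strongest peak of each library (columns, 2 per group) in each of the 39 regions with a peak in at least 4 libraries (rows, named by gene and by the distance of the summit from the gene's closest start in kb). Colours run from 0 to 100 and grey marks a library without a peak. The Kit promoter and the region 21.5 kb from the Cd27 start were strong in all 8 libraries, while 21 of the 39 regions had no peak in LSK+ WT replicate 2.

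Kit had the strongest promoter of the 8 genes. The promoter region (mm10, chr5:75574654-75576338, with the summit in exon 1 outside the coding sequence) carried a peak in all 8 libraries. In 5 libraries it held 2 peaks, and the strongest, which gives the value of a library, had its summit about the first start in 5 libraries and downstream, by up to 917 bases, in LSK+ WT, LSK+ XistΔ/Δ and LSK- WT replicate 1. The values therefore come from different peaks of the region. Its percentile was 83.0 and 86.8 for LSK+ WT (replicates 1 and 2, in this order throughout), 92.5 and 92.8 for LSK+ XistΔ/Δ, 92.6 and 87.4 for LSK- WT, and 93.1 and 94.5 for LSK- XistΔ/Δ. Both LSK+ WT libraries were lowest by the strongest peak. The fold enrichment was 8.94 and 13.9 for LSK+ WT, 11.04 and 17.2 for LSK+ XistΔ/Δ, 9.78 and 14.9 for LSK- WT, and 10.1 and 18.8 for LSK- XistΔ/Δ, higher in replicate 2 of each group. The mean percentile was 3.14 points higher in LSK- than in LSK+ and 5.79 points higher in XistΔ/Δ than in WT (exact permutation p = 0.0556 for each, adjusted p = 0.308 and 0.399 over all 60447 regions). When each list was cut to its 29829 strongest peaks, the length of the shortest, the percentiles became 63.9, 86.8, 79.3, 84.8, 82.4, 84.1, 78.9 and 88.5 in the same order and the region was called in neither contrast. With peaks joined by summits, the peak at the start was at 86.8, 78.2, 92.8, 71.0, 87.4, 93.1 and 94.5 in the 7 libraries other than LSK+ WT replicate 1 and was called in neither contrast (exact permutation p = 0.278 for the cell types and 0.222 for the genotypes). Ranking by fold also ended both calls (p = 0.389 for each in the exact permutation test). Where a peak had to cover 50% or more of the region to count, LSK+ was the higher by 20.7 points (p = 1, exact permutation test). The bases before the first annotated Kit start are shown because they hold the upstream part of this peak; capitals mark a match to the ETS letters AGGAAG, the only match there to any of the 6 motifs searched.
Kit promoter, chr5:75574666-75574915, + strand: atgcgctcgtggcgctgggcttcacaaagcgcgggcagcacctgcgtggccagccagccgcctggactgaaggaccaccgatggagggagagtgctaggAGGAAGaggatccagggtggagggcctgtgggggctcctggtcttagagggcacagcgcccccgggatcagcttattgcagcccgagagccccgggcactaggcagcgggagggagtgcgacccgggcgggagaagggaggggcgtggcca

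The largest cell type difference at Kit lay inside the gene. A region in intron 7, 49.5 kb from the start (chr5:75623727-75624892), was at percentile 79.9 and 8.30 for LSK- WT and at 88.0 and 51.0 for LSK- XistΔ/Δ, with a fold enrichment of 10.7, 4.98, 12.5 and 8.81. Of the LSK+ libraries, only WT replicate 1 had a peak there, at percentile 3.89 with a fold of 4.24. All 4 LSK- libraries were therefore above all 4 LSK+ libraries, and the mean was 55.8 points higher in LSK- (82.0 points among replicates 1 and 29.7 among replicates 2; exact permutation p = 0.0556, adjusted p = 0.308). The LSK- peaks alone met the minimum of 4 libraries for a comparison, so the filter favours this call. The region was called on summit pileup over background pileup as well, but not with lists of equal length, where peaks remained in LSK- WT replicate 1 (52.2) and LSK- XistΔ/Δ replicate 1 (63.1) alone. With peaks joined by summits it had peaks in too few libraries to be compared. Its 250 bases about the summit are shown as the called distal region of Kit with the highest mean percentile; they hold none of the 6 motifs.
Kit, 49.5 kb from the start, chr5:75624345-75624594, + strand: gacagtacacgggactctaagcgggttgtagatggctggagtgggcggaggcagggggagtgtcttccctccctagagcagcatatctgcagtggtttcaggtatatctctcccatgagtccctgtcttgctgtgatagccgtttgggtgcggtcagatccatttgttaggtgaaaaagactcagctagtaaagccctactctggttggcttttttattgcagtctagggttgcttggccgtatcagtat

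The rest of the Kit window was sparse. A region 96.6 kb from the start (chr5:75671200-75671782, intergenic, beyond the 3′ end of the gene) had no peak in either LSK+ WT library or in LSK- WT replicate 2, stood at 29.4 in LSK- WT replicate 1, and reached 47.8 and 49.8 for LSK+ XistΔ/Δ and 39.7 and 35.1 for LSK- XistΔ/Δ, so that both XistΔ/Δ libraries were above both WT libraries in each cell type (difference 35.7 points, exact permutation p = 0.0556). It held no peak in any list of equal length, and with peaks joined by summits it had peaks in too few libraries to be compared. A region 14.8 kb from the start in intron 1 (chr5:75589416-75589973) was found in 6 libraries at percentiles between 8.53 and 51.3, with no call. Of the 21 regions of the window, 17 had a peak in fewer than 4 libraries; among them, the region at 33.2 kb in intron 2 (chr5:75607816-75608485) was found in 3 LSK- libraries (29.0, 74.4 and 29.6) and in no LSK+ library, and the region at 61.9 kb in intron 7 (chr5:75636588-75637081) in 3 LSK+ libraries (10.4, 24.3 and 2.21) and in no LSK- library.

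**Figure D2:**
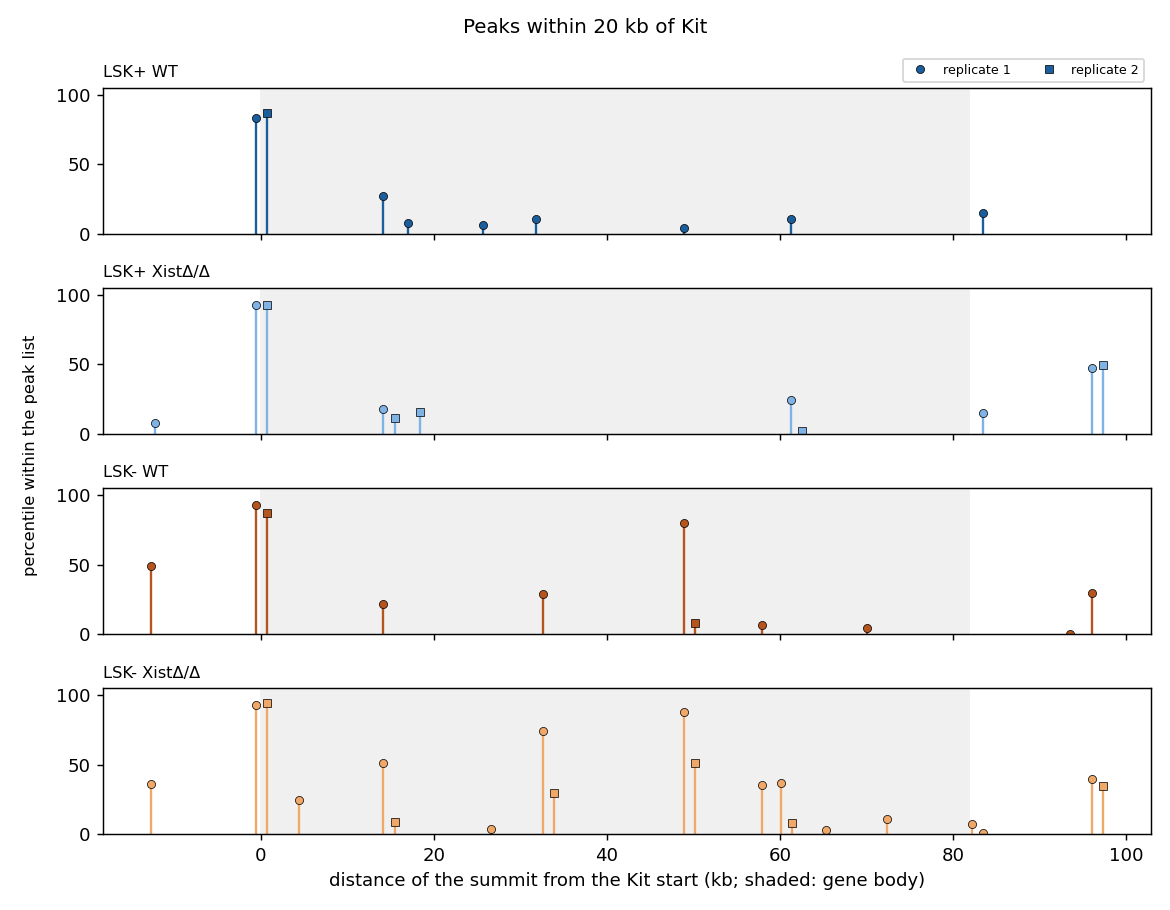
Percentile within the list (vertical axis) of each peak within 20 kb of Kit against the distance of the region's summit from the Kit start in kb (horizontal axis), 1 panel per group. Circles are replicate 1 and squares replicate 2, drawn slightly to either side of their position, and the gene body is shaded. The promoter peak stood above 80 in every library, and the peak 49.5 kb from the start reached 88.0 in LSK- cells but no more than 3.89 in LSK+ cells.

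By the Pearson correlation of promoter percentiles over the 8 libraries, the protein-coding genes most like Kit among 11873 compared were Bcorl1 (r = 0.964), Maged2 (r = 0.961) and Eps15l1 (r = 0.961). These are descriptions: the 8 points share libraries, depth and list length. For Ly6a no such comparison was made, because the region taken as its promoter, past the 3′ end of the short gene, had a peak in a single library.

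Ly6a, the gene of Sca-1, had no peak within 1 kb of its start in any of the 8 libraries, although LSK+ cells were sorted for the protein. Within 3 kb, LSK- XistΔ/Δ replicate 1 had a peak at percentile 29.6 with a fold of 5.29 (chr15:74994319-74994701, 3.0 kb from the start and past the 3′ end of the short gene), and LSK+ WT replicate 1 had a peak at percentile 10.8 with a fold of 5.22 (chr15:74999723-74999957, 1.9 kb upstream). The other 6 libraries had neither. The sequence around this start is close to that of another gene: of the 2001 bases centred on it, 1942 aligned with 95.4% identity to chr15:75048000-75049934, where Ly6c1 starts, and the lists were made from reads with a mapping quality of at least 30. Ly6c1 had no promoter peak in any library either. For Kit, Ly6e, Cd34, Slamf1 and Cd27 the same search found no second match of at least 200 bases and 90% identity. Cd48 had 51340 such matches and Procr 154, of which the longest were 555 and 235 bases. Their part in the promoter peaks of these genes was not tested. The part of the sequence match in the missing Ly6a peak was not tested.

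The strong region of the Ly6a window lay 8.9 kb downstream of the Ly6a start (chr15:74988336-74989725), at the first exon of the annotated noncoding gene Gm37042. All 8 libraries had it, at 78.6 and 58.6 for LSK+ WT, 81.9 and 88.4 for LSK+ XistΔ/Δ, 69.8 and 68.2 for LSK- WT, and 80.4 and 80.8 for LSK- XistΔ/Δ. Each XistΔ/Δ library was above both WT libraries of its cell type (difference 14.1 points, 6.97 among replicates 1 and 21.2 among replicates 2; exact permutation p = 0.0556, adjusted p = 0.399), while LSK+ and LSK- overlapped (difference 2.09 points, p = 0.778 in the exact permutation test). At equal list length the genotypes overlapped, with 54.6, 58.6, 50.0 and 75.4 in the LSK+ libraries and 27.9, 60.04, 39.8 and 59.7 in the LSK- libraries. A weaker region 15.1 kb away (chr15:74982290-74982752), in intron 1 of the neighbouring Ly6i, was found in LSK+ cells only, in WT replicate 1 (22.0) and both XistΔ/Δ libraries (31.0 and 20.8), and with 3 libraries it was below the minimum for a comparison. The second region of the window by mean percentile (chr15:74975234-74975492), which the Ly6e window shares, was seen in LSK+ XistΔ/Δ replicate 1 (20.0), LSK- WT replicate 1 (32.1) and LSK- XistΔ/Δ replicate 1 (39.7), that is in replicates 1 alone.

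Ly6e, a relative of Ly6a that also encodes a lipid-anchored surface protein, differed in having an open promoter in every library. The promoter region (chr15:74954947-74955999) was at 67.9 and 45.2 for LSK+ WT, 78.6 and 69.7 for LSK+ XistΔ/Δ, 64.0 and 61.2 for LSK- WT, and 68.7 and 69.1 for LSK- XistΔ/Δ. The cell types overlapped, with a mean difference of -0.40 points that changed sign under several settings, and XistΔ/Δ was above WT by 12.0 points (exact permutation p = 0.0556). Ranking by fold ended that call (exact permutation p = 0.389). The order did not hold at equal list length, where the difference of XistΔ/Δ minus WT was -6.63 points. The strongest region of the window, 11.9 kb downstream (chr15:74968029-74968658, intergenic), ranged from 21.5 in LSK+ WT replicate 2 to 87.6 in LSK- WT replicate 1 and was called higher in LSK- with the replicate block alone. A region 4.4 kb upstream (chr15:74950258-74950954) was found in 3 LSK- libraries (65.0, 79.3 and 34.3) and in no LSK+ library. A region 6.2 kb downstream (chr15:74962525-74962933, intergenic) was found at 49.7 and 49.8 for LSK+ XistΔ/Δ and 35.4 and 60.3 for LSK- XistΔ/Δ, and in the WT groups in replicate 2 alone (30.5 and 32.4). It was called higher in XistΔ/Δ (difference 33.1 points, exact permutation p = 0.0556). At equal list length the region had peaks in too few libraries to be compared. It is the called distal region of Ly6e, and its sequence holds the ETS letters, on either strand, at 2 places in capitals.
Ly6e, 6.2 kb from the start, chr15:74962666-74962915, + strand: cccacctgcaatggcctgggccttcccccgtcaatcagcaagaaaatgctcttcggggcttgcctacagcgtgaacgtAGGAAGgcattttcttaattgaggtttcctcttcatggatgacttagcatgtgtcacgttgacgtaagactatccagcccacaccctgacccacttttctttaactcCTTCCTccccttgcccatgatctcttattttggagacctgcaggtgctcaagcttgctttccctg

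Cd34, the gene of a sialomucin of progenitor and endothelial cells, had an open promoter in all libraries (chr1:194938537-194939285), at 74.9 and 77.6 for LSK+ WT, 81.5 and 89.6 for LSK+ XistΔ/Δ, 62.9 and 81.3 for LSK- WT, and 76.1 and 86.4 for LSK- XistΔ/Δ. Neither contrast separated the groups (exact permutation p = 0.5 for the cell types and 0.167 for the genotypes). Replicate 2 was the higher of each pair. XistΔ/Δ was above WT in all 4 pairs of equal replicate number, so that the replicate block called the promoter higher in XistΔ/Δ (exact permutation p = 0.125). A region 10.7 kb upstream (chr1:194927746-194928457, intergenic) was at 54.4 and 47.1 for LSK+ WT, 73.6 and 83.9 for LSK+ XistΔ/Δ, 56.0 and 70.0 for LSK- WT, and 83.7 and 86.7 for LSK- XistΔ/Δ. It was called higher in XistΔ/Δ, by 25.1 points (23.4 and 26.7 among replicates 1 and 2; exact permutation p = 0.0556, adjusted p = 0.399), and with the replicate block also higher in LSK-. At equal list length the percentiles were 3.19 and 47.1 for LSK+ WT against 27.1 and 65.9 for LSK+ XistΔ/Δ, so the higher value was with XistΔ/Δ within each replicate number but the groups overlapped. The region holds none of the 6 motifs in the 250 bases about its summit.
Cd34, 10.7 kb upstream, chr1:194928016-194928265, + strand: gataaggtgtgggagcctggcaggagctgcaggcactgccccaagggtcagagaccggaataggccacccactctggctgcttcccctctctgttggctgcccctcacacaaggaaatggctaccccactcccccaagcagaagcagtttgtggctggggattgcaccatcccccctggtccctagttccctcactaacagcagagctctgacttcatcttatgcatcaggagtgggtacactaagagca

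The strongest region of the Cd34 window was the start of the neighbouring noncoding gene A330023F24Rik, 37.5 kb downstream (chr1:194976001-194977535), with percentiles between 68.9 and 94.5; the replicate block called it higher in XistΔ/Δ. Between it and Cd34, a region in intron 2 of Gm16897 (chr1:194962100-194962757, 23.5 kb from the Cd34 start) was found in 7 libraries. At equal list length its percentiles were 15.7, 0, 14.2 and 0 in the LSK+ libraries and 17.8, 55.2, 37.1 and 31.9 in the LSK- libraries, which made it the only region of the 8 windows called higher in LSK- on lists of equal length. On whole lists the values were 60.3, 0, 69.0 and 51.7 against 65.6, 64.4, 79.5 and 67.5, and the XistΔ/Δ libraries overlapped; the replicate block called it higher in LSK- and in XistΔ/Δ. A region 3.2 kb upstream of Cd34 (chr1:194935365-194935750) was seen in 3 LSK- libraries (66.4, 65.1 and 16.8) and in no LSK+ library.

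**Figure D3:**
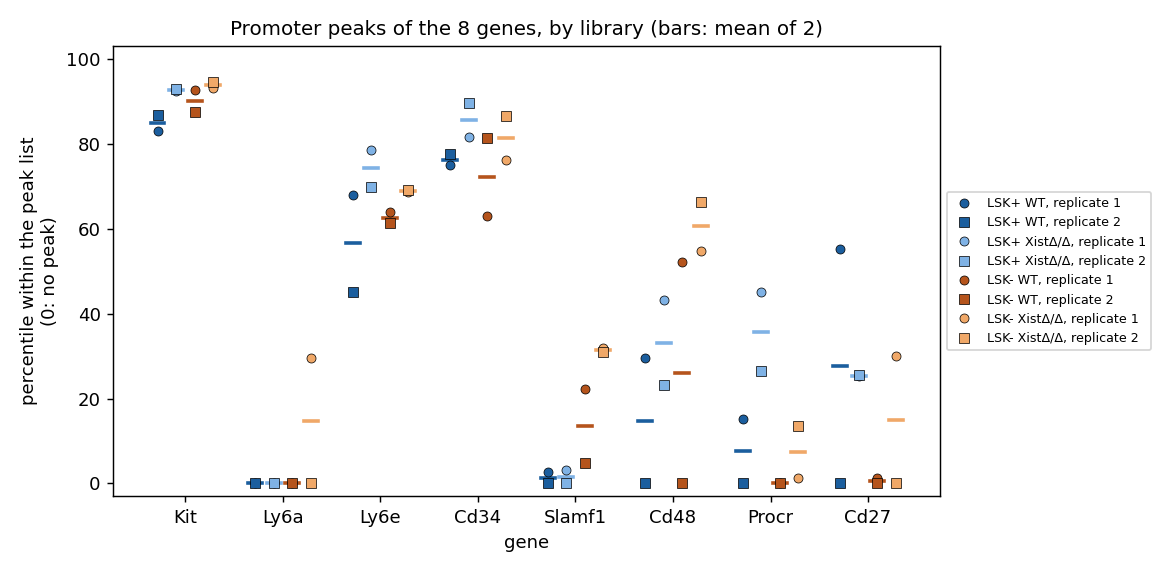
Percentile within the list (vertical axis) of the promoter peak of each gene (horizontal axis), with 1 symbol per library, circles for replicate 1 and squares for replicate 2, and a bar for the mean of the 2 libraries of a group. A value of 0 is a library without a peak. Kit, Ly6e and Cd34 had a promoter peak in all 8 libraries, and the Slamf1 promoter was at most 3.13 in LSK+ cells. The value shown for Ly6a is that of a peak past the 3′ end of the gene, seen in 1 library.

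Slamf1 encodes CD150, the SLAM receptor used to enrich stem cells, and its promoter was weak and ranked higher in LSK-. The promoter region (chr1:171767017-171767455) was at 2.77 in replicate 1 of LSK+ WT and at 3.13 in replicate 1 of LSK+ XistΔ/Δ, with no peak in either replicate 2. In LSK- WT it was at 22.2 and 4.77, and in LSK- XistΔ/Δ at 31.8 and 30.9. The LSK- libraries were all above the LSK+ libraries (difference 20.95 points; 24.1 among replicates 1 and 17.9 among replicates 2; exact permutation p = 0.0556, adjusted p = 0.308), and the fold enrichment was 7.25 at most. With peaks of −log10 q of at least 5 the call was lost (exact permutation p = 0.167). Too weak a peak to enter any list of equal length, it could not be compared there.

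Other Slamf1 regions went in both directions. The region 21.7 kb into the gene, in intron 4 (chr1:171788427-171789372), was at 4.95 and 4.98 for LSK+ WT, 26.2 and 6.14 for LSK+ XistΔ/Δ, 37.0 and 31.3 for LSK- WT, and 58.1 and 39.99 for LSK- XistΔ/Δ. It was called higher in LSK- (by 31.0 points) and higher in XistΔ/Δ (by 13.1 points), each with an exact permutation p of 0.0556. Of these only the order of the cell types was called on summit pileup over background pileup. At equal list length this region had peaks in too few libraries to be compared. The region 50.1 kb from the start (chr1:171816974-171817532), intergenic and beyond the 3′ end of Slamf1 towards Cd84, had the opposite order between cell types. It was at 32.7 and 15.5 for LSK+ WT and at 69.9 and 46.7 for LSK+ XistΔ/Δ, absent from both LSK- WT libraries, and at 16.1 and 30.1 for LSK- XistΔ/Δ. LSK+ exceeded LSK- by 29.7 points (43.3 among replicates 1 and 16.0 among replicates 2) and XistΔ/Δ exceeded WT by 28.6 points (exact permutation p = 0.0556 for each, adjusted p = 0.308 and 0.399). On summit pileup over background pileup the same 2 calls were made for this region; at equal list length a peak remained in LSK+ WT replicate 2 (15.5) and LSK+ XistΔ/Δ replicate 1 (16.8) alone. It is the called distal region of Slamf1 with the highest mean percentile, and its window holds the ETS letters at 1 place, in capitals.
Slamf1, 50.1 kb from the start, chr1:171817103-171817352, + strand: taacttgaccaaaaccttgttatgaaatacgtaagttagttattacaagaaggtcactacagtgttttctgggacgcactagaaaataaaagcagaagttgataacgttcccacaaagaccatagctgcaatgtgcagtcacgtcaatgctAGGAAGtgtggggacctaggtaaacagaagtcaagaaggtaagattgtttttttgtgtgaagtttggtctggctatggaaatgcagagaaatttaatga

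A neighbouring region, 48.9 kb from the Slamf1 start (chr1:171815722-171816452), did not follow the same order: it was the strongest of the window, at 90.7 and 50.5 for LSK- WT, 86.9 and 76.2 for LSK- XistΔ/Δ against 79.7 and no peak for LSK+ WT, 82.2 and 63.9 for LSK+ XistΔ/Δ, and was called higher in LSK- with the replicate block alone. The region 5.1 kb upstream of Slamf1 (chr1:171761698-171762522) was found in all libraries, from 7.91 in LSK+ WT replicate 2 to 86.9 in LSK+ XistΔ/Δ replicate 1, and was called higher in XistΔ/Δ with the replicate block alone. A region 29.3 kb from the start, in intron 5 (chr1:171796135-171796493), was seen weakly in 3 LSK- libraries (10.19, 13.1 and 3.92) and in no LSK+ library.

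**Figure D4:**
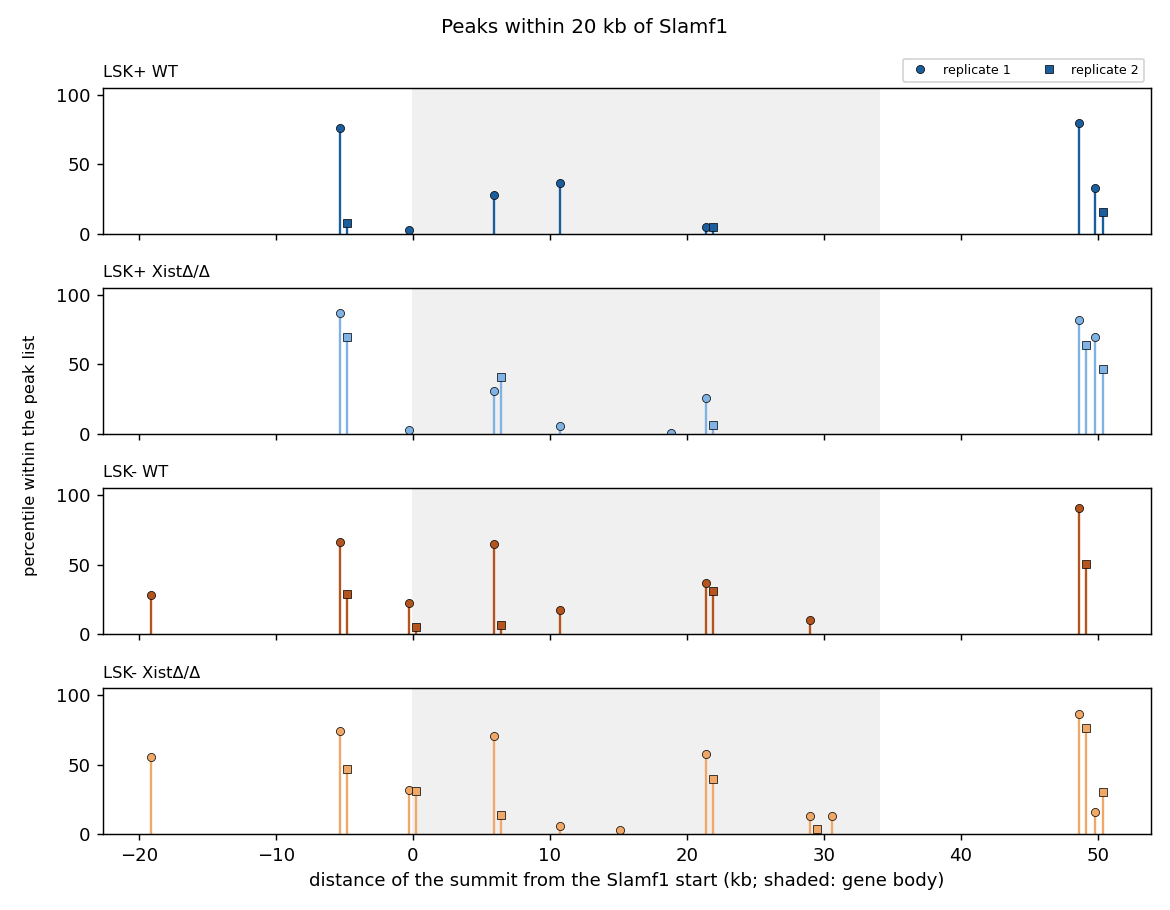
Percentile within the list (vertical axis) of each peak within 20 kb of Slamf1 against the distance of the region's summit from the Slamf1 start in kb (horizontal axis), 1 panel per group, with circles for replicate 1 and squares for replicate 2 drawn slightly to either side of their position and the gene body shaded. The peak 50.1 kb from the start stood at 69.9 and 46.7 for LSK+ XistΔ/Δ and was missing from LSK- WT, while the promoter and the peak 21.7 kb into the gene were higher in LSK- cells.

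Cd48 encodes the surface ligand of CD244, and stem cells are sorted as negative for it. Its promoter region (chr1:171680940-171682418, 0.8 kb upstream of the Cd48 start and in intron 1 of A630035G10Rik) was at 29.5 and no peak for LSK+ WT, 43.1 and 23.1 for LSK+ XistΔ/Δ, 52.1 and no peak for LSK- WT, and 54.8 and 66.2 for LSK- XistΔ/Δ. The groups overlapped in both contrasts (difference of LSK+ minus LSK- -19.4 points, exact permutation p = 0.278), and the replicate block called it higher in XistΔ/Δ. The strongest summits lay up to 929 bases apart: those of the LSK+ libraries were at the Cd48 start and those of the LSK- libraries upstream of it. A region 4.1 kb upstream (chr1:171677673-171677998) was at 64.3 and 28.4 for LSK- WT, 65.1 and 37.4 for LSK- XistΔ/Δ, and of the LSK+ libraries XistΔ/Δ replicate 2 alone had a peak, at 22.2. It was called higher in LSK-, by 43.3 points (64.7 among replicates 1 and 21.8 among replicates 2, exact permutation p = 0.0556, adjusted p = 0.308), but not on summit pileup over background pileup. The region met the minimum of 4 libraries through its LSK- peaks alone, so the filter favours this call. At equal list length it had peaks in too few libraries to be compared. The region 8.7 kb upstream (chr1:171672619-171673388, intergenic) had the reverse order: 76.9 and 22.9 for LSK+ WT, 84.5 and 64.2 for LSK+ XistΔ/Δ, against 56.0 and 18.9 for LSK- WT, 46.8 and 34.8 for LSK- XistΔ/Δ. On whole lists its WT libraries overlapped, and the replicate block called it higher in LSK+. On lists of equal length it was at 50.9, 22.9, 57.2 and 24.1 in the LSK+ libraries with no peak in any LSK- library; it reached the minimum of 4 libraries there through LSK+ alone, which fixes its call. The strongest region of the window, in intron 2 of Cd48 17.2 kb from the start (chr1:171698827-171699435), was at 67.1 in LSK+ WT replicate 1 with no peak in replicate 2, and between 62.2 and 91.0 elsewhere.

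Procr, whose product marks long-term stem cells, had a weak promoter and a strong upstream region. The promoter (chr2:155750875-155751712, summit in exon 1 outside the coding sequence) was at 15.1 in LSK+ WT replicate 1, 45.0 and 26.5 for LSK+ XistΔ/Δ, and 1.22 and 13.6 for LSK- XistΔ/Δ, with no peak in the remaining 3 WT libraries. It was called higher in XistΔ/Δ, by 17.8 points (exact permutation p = 0.0556; p = 0.167 with peaks of −log10 q of at least 5 and with peaks joined by summits), and did not separate the cell types (17.9 points higher in LSK+, p = 0.167 in the exact permutation test). No list of equal length held it. The region 7.9 kb upstream (chr2:155742298-155743642, intergenic) was found everywhere, at 95.2 and 69.5 for LSK+ WT, 96.9 and 83.5 for LSK+ XistΔ/Δ, 87.5 and 62.5 for LSK- WT, and 85.2 and 73.6 for LSK- XistΔ/Δ. It was higher in LSK+ than in LSK- of the same replicate number and genotype in 4 of 4 pairs, so that the replicate block called it and the unpaired rule did not (difference 9.05 points, exact permutation p = 0.333). On summit pileup over background pileup it was 90.8, 66.4, 97.9 and 91.5 in the LSK+ libraries and 43.4, 28.2, 31.6 and 34.6 in the LSK- libraries, without overlap, and was called. The second strongest region of the window lay in intron 1 of the neighbour Mmp24, 24.7 kb from the Procr start (chr2:155775391-155776187), from 35.1 to 75.3 with no call.

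Cd27 encodes a receptor of the tumour necrosis factor family, lies next to Tapbpl, and falls within the longest annotated transcript of Vamp1. Its promoter (chr6:125236781-125237785) was at 55.2 with no peak in replicate 2 for LSK+ WT, at 25.3 and 25.4 for LSK+ XistΔ/Δ, at 1.19 with no peak in replicate 2 for LSK- WT, and at 30.03 with no peak in replicate 2 for LSK- XistΔ/Δ. The groups overlapped in both contrasts (exact permutation p = 0.5 for the cell types and 0.889 for the genotypes), and the strongest summits lay up to 653 bases apart. A cell type difference stood 14.6 kb downstream of the Cd27 start, in intron 4 of the longest Vamp1 transcript (chr6:125221669-125222648). It was at 60.7 and 8.29 for LSK+ WT, 84.4 and 62.2 for LSK+ XistΔ/Δ, with folds of 7.83, 4.92, 11.6 and 10.5. In LSK- cells XistΔ/Δ replicate 2 alone had a peak, with a fold of 3.21 and at the bottom of its list. LSK+ exceeded LSK- by 53.9 points (72.6 among replicates 1 and 35.2 among replicates 2; exact permutation p = 0.0556, adjusted p = 0.308). The LSK+ peaks alone met the minimum of 4 libraries on whole lists too, so the filter favours this call. The call was also made on summit pileup over background pileup. On lists of equal length the LSK+ libraries were at 16.6, 8.29, 56.9 and 19.9 with no LSK- peak, and the minimum of 4 libraries was reached through LSK+ alone, which fixes the call there. The peak of LSK+ WT replicate 2 had its summit up to 681 bases from those of the other libraries, and with peaks joined by summits the region lost that peak and was not called. Its bases beyond the end of a short Vamp1 transcript are shown, with the ETS letters at 2 places and the E-box letters CAGCTG at 1 place in capitals.
Cd27, 14.6 kb from the start, chr6:125222307-125222556, + strand: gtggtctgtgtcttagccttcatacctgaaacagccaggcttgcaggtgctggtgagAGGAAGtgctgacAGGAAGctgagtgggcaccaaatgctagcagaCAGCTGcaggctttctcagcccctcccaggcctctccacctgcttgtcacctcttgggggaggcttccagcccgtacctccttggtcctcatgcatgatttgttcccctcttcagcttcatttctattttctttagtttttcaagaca

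Close to Cd27, a region 4.7 kb upstream of its start (chr6:125241524-125241852) was seen in 3 LSK+ libraries (48.6, 58.7 and 36.7) and no LSK- library, and the regions at the starts of Vamp1 (chr6:125215055-125215974) and Tapbpl (chr6:125231128-125232767) were found in all 8. The Vamp1 start was the strongest region of the 8 windows, between 92.9 and 99.6, with overlap in both contrasts. The Tapbpl start lay between 36.7 and 76.4 and was called higher in LSK+ on summit pileup over background pileup alone.

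Across the 39 regions, 2 were called higher in LSK+ (the regions at Slamf1 50.1 kb and Cd27 14.6 kb) where 6.15% of all 60447 regions were, and 5 higher in LSK- (the Kit promoter, Kit 49.5 kb, the Slamf1 promoter, Slamf1 21.7 kb and Cd48 4.1 kb upstream) where 11.9% were. These are 5.13% and 12.8% of the members, close to the background. By the rule, each called region has a peak in all 4 libraries of its higher side. Those libraries alone meet the minimum of 4, in the members and in the series alike. On lists of equal length 19 of the regions remained with at least 4 libraries, and 2 were called higher in LSK+ (background 15.1% of 29565), both present there in LSK+ alone, and 1 in LSK- (12.7%). On summit pileup over background pileup 5 of 39 were called higher in LSK+ (background 16.1%) and 3 in LSK- (7.12%). With the replicate number as a block the counts were 4 in LSK+ (13.6%) and 9 in LSK- (19.6%). Without LSK+ WT replicate 2 the LSK+ count became 6 where 19.8% of all regions were called, and without LSK- WT replicate 1 it was 3 (11.1%). The median difference of LSK+ minus LSK- was 0.491 points over the 39 regions and -0.946 points over all regions.

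The genotypes often shared the direction of the cell type difference, as in the series. The difference of LSK+ minus LSK- was above 0 in both WT and XistΔ/Δ for 13 of the 39 regions and below 0 in both for 13, against 33.1% and 40% of all 60447 regions, and the 7 called regions were in this number by the rule. An order without overlap in 1 genotype and the opposite order without overlap in the other was found in 0 of the 39 and in 0.486% of all regions. Of 10 regions with a peak in exactly 3 libraries, 3 had all of them in LSK+ and 4 all in LSK-, against 22.2% and 25.8% of the 12883 such regions in the series.

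**Figure D5:**
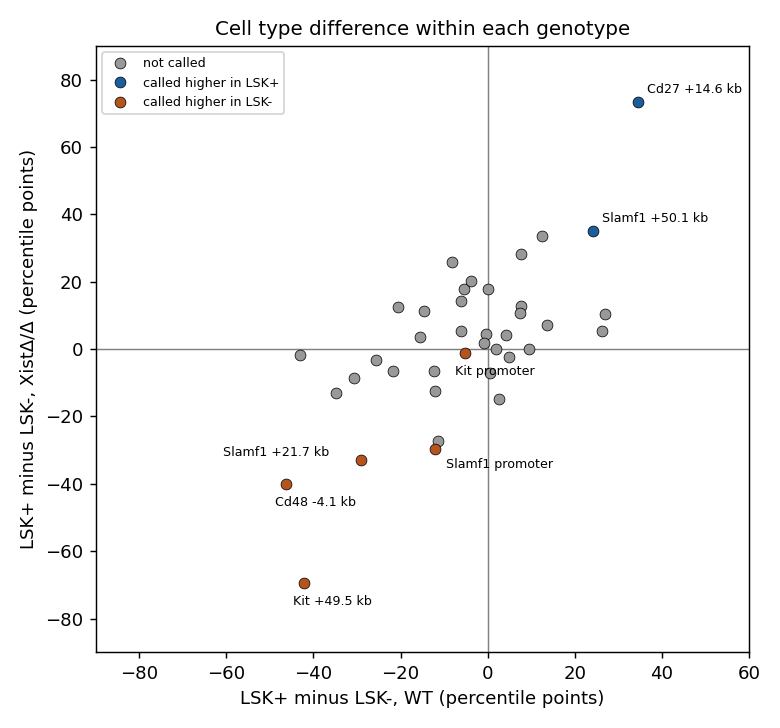
Difference of the mean percentile, LSK+ minus LSK-, in WT (horizontal axis) and in XistΔ/Δ (vertical axis), in percentile points, with 1 point per region for the 39 regions. Blue and orange points are regions called higher in LSK+ and in LSK-, grey points were not called. The Cd27 region at 14.6 kb lies farthest up and right, and the Kit region at 49.5 kb lowest.

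Between the genotypes, 9 of the 39 regions were called higher in XistΔ/Δ (23.1% of the members; the promoters of Kit, Ly6e and Procr, and the regions at Kit 96.6 kb, Ly6a 8.9 kb, Ly6e 6.2 kb, Cd34 10.7 kb upstream, and Slamf1 21.7 and 50.1 kb) and 0 in WT, where 13.9% and 0.00993% of all regions were called. Of the 9, 4 had a WT library without a peak. By the rule all 9 had a peak in each of the 4 XistΔ/Δ libraries, which alone meet the minimum of 4 libraries. At Kit 96.6 kb and the Procr promoter a single WT library had a peak, at 29.4 and 15.1. The mean percentile was higher in XistΔ/Δ in 38 of 39 regions and in 95.3% of all regions, with a median difference of 14.1 points, and over all regions the median was 12.7 points. On lists of equal length 0 of the 19 regions compared were called in either direction, where 1.12% of all regions were called higher in XistΔ/Δ and 1.12% higher in WT. The Procr promoter and the regions at Kit 96.6 kb, Ly6e 6.2 kb, and Slamf1 21.7 and 50.1 kb were not among the 19. They had a peak in fewer than 4 of these lists. On summit pileup over background pileup 2 were called higher in XistΔ/Δ, the Slamf1 region at 50.1 kb and the Procr promoter (background 4.37%), and 0 in WT (0.0744%). Without 1 library the XistΔ/Δ count was 13 where LSK+ WT replicate 1 (22.5% of all regions called) or LSK- XistΔ/Δ replicate 2 (23.9%) was left out, and 9 to 12 otherwise. With the replicate number as a block the counts were 17 (33.2%) and 0 (0.0579%). The genotype calls that could be compared at equal list length, at the promoters of Kit and Ly6e, Ly6a 8.9 kb and Cd34 10.7 kb upstream, were thus not made there. List length was greater in XistΔ/Δ than in WT in all 4 pairs matched for cells and replicate number. The part of list length in the genotype differences was not tested beyond these settings.

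The letters of 6 motifs were searched on both strands in the 250 bases about each summit: AGATAA for the GATA factors, AGGAAG for the ETS family, TGTGGT for RUNX, CAGCTG for an E-box, TTCNNNGAA for the STAT element called GAS, and TGANTCA for AP-1. The last 3 read the same on both strands. ETS letters were in 16 of the 39 regions and in 46.8% of all 60447 regions, GATA letters in 6 and 14.8%, RUNX letters in 6 and 27.7%, E-box letters in 7 and 18.2%, GAS letters in 6 and 6.95%, and AP-1 letters in 4 and 9.59%. The median GC content was 50.8% in the 39 windows and 51.2% in all. These counts describe letters and not binding.

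Other surface proteins used in such sorts gave a comparison. Promoters of all 11 genes (Flt3, Tek, Esam, Cd244a, Cd9, Thy1, Itga2b, Fcgr3, Il7r, Eng and Cd93) had a peak in at least 4 libraries. On whole lists 3 were called higher in LSK+, those of the adhesion molecule Esam, endoglin (Eng) and Cd93, and 0 in LSK-, where 4.17% and 9.42% of 14661 protein-coding promoters were called. At equal list length the calls of Esam and Cd93 remained and that of Eng was lost. The regions read for Esam, Thy1 and Itga2b had no summit within 1 kb of a start of their gene. The median difference was 8.37 points in favour of LSK+, against -1.77 points over the promoters of the 8 genes, of which 0 were called higher in LSK+ and 2 in LSK-. The 8 include Ly6a, at -7.41 points from a peak in 1 library, which is below the minimum of 4 libraries that all 11 genes met. For Esam the percentiles were 81.0 and 71.1 for LSK+ WT, 81.6 and 80.4 for LSK+ XistΔ/Δ, against 36.8 and 20.0 for LSK- WT, 45.7 and 59.2 for LSK- XistΔ/Δ. Whether the 2 gene lists differ was not tested.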

How the data were processed

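ATAC-seq of bone marrow LSK+ and LSK- cells of WT and XistΔ/Δ female mice gave 8 libraries, 2 per group. According to the submitters' notes and the study's methods, the authors trimmed reads with Trim Galore, aligned them to mm10 with Bowtie2 2.3.5.1, removed mitochondrial reads and those with a mapping quality under 30 with SAMtools 1.10, and called peaks in each library with MACS2 2.2.7.1 at a q threshold of 0.01. No control library, removal of duplicates or shift of the read ends is stated in the sources used here. The deposited lists hold, per peak, the fold enrichment (a ratio), −log10 p, −log10 q, an integer score and, as another value, the distance of the summit from the peak start. The deposited score was not used.

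The genes and the lists of other genes were chosen with earlier results of these data known. Peaks on chromosomes 1 to 19 and X were merged where they shared at least 1 base, and a region was compared when at least 4 libraries had a peak in it. Percentiles were taken by −log10 p within each list, with 0 for no peak. Fold and p, as the deposited values, were solved for the whole number of fragments at the summit and the local background, which succeeded for 100% of peaks in each list, and the most frequent background served as a measure of depth, since the lists give no read totals. The value of a library in a region is that of its strongest peak there; 6 of the 39 regions had several peaks in a library, and in 4 the strongest summits lay over 500 bases apart. Single values were tested by a 2-sided exact permutation of library labels within strata, with 36 assignments (16 with the replicate block), adjusted over 60447 regions by Benjamini-Hochberg. The study's methods speak of biological replicates and the labels name no mice, so p-values measure the spread between these libraries.

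The lists carry a code that is shared by all replicates 1 and another shared by all replicates 2. What the code stands for is not given in the sources used here. Same-numbered libraries deviated together (correlations of deviations 0.162 to 0.464 over the 6 pairs of groups). The numbers were therefore treated as pairing in a replicate block, and its counts are given beside the main results, which are unblocked. Alternatives were ranking by fold, lists of equal length, a stricter q, other joining of peaks, all regions, a promoter window of 1 kb, the block and leaving out each library. Summit pileup over background pileup, and the block at equal length, were added after the data were seen.

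Regions were annotated with GENCODE M21 basic, and sequence was read from GRCm38.p6, whose chromosome lengths contain all peaks. Named were the promoter region of each gene (a summit within 3 kb of a start, highest mean percentile), its 2 regions of highest mean percentile and every called region. The region 14.8 kb from the Kit start and the regions with a peak in 3 libraries, all of 1 cell type, were chosen after their values were seen. Of the list of other sorting genes, 1 is not reported here. The sequences of the Ly6a promoter region, of the Ly6e promoter and of exons are not shown. Second matches of gene starts were found with BLAST+ 2.17.0+, and statistics were computed with Python 3.11.15, numpy 2.4.6, pandas 2.3.3 and scipy 1.17.1. The procedures were tested on simulated data.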

Additional observations from a re-analysis of the deposited data

How the results depend on the processing

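The counts of called regions moved with most choices; the share of all regions called is in brackets. Higher in LSK+ (2 regions, 6.15%): 1 (5.1%) with peaks of −log10 q of at least 5, 1 (6.16%) with peaks joined by summits, 1 (5.2%) with peaks covering at least 50% of a region, 4 (13.6%) with the replicate block, 5 (16.1%) on summit pileup over background pileup, 5 (21.3%) with the replicate block at equal list length, and 2 to 6 (6.33% to 19.8%) without each library in turn. Higher in LSK- (5, 11.9%): 1 (12.7%) at equal list length, 3 (12%) joined by summits, 0 (5.55%) at 50% cover, 9 (19.6%) with the replicate block, 3 (7.12%) on summit pileup, 2 (19.9%) with block and equal length, and 5 to 6 (12.3% to 18.5%) without each library. Higher in XistΔ/Δ (9, 13.9%): 5 (10.8%) ranked by fold, 0 (1.12%) at equal list length, 3 (9.39%) at 50% cover, 17 (33.2%) with the replicate block, 2 (4.37%) on summit pileup, 1 (4.71%) with block and equal length, and 9 to 13 (15.0% to 27.1%) without each library. Higher in WT (0, 0.00993%): 1 (5.1%) with block and equal length. Fewer regions of the gene windows enter at equal list length, at the stricter q, with peaks joined by summits and at 50% cover, and elsewhere the cause was not tested.

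Of 238 recomputed promoter differences 13 changed sign. Between cell types (points, LSK+ minus LSK-) these were Kit at 50% cover (20.7), Ly6e ranked by fold (7.16), Ly6e at equal list length (12.3), Ly6e without 1 library (-6.10 to 5.30), Cd34 ranked by fold (-1.17) and Cd34 without 1 library (-0.373 to 8.85). Between genotypes they were Ly6e at equal list length (-6.63), Cd34 at 50% cover (-12.4), Cd27 at equal list length (-1.23) and Cd27 without 1 library (-7.73 to 19.9). The difference in the share of a list in the windows, in percentage points, ran from -0.00452 to 0.000718 between cell types and from -0.00463 to 0.000601 between genotypes without 1 library. The lists hold no peak under the caller's threshold, which limits what an absent peak in a short list shows.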
